A study of Mus musculus with 12 samples.

Results

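Developmental pluripotency associated (*Dppa*) genes and other stem-cell marker genes were followed in mouse embryonic stem cells (ESCs) and in the spheroids formed from them. The set held 8 genes chosen by name, *Dppa2*, *Dppa3*, *Dppa4*, *Dppa5a*, *Fbxo15*, *Utf1*, *Tcl1* and *L1td1*, of 35580 genes quantified. All 8 passed the filter on low counts, as did 17424 genes in all. WT cells were parental R1 mouse ESCs. CIDEA KO cells were 1 clone of the same line (Cidea -/-), in which both copies of *Cidea* were deleted with CRISPR-Cas9, so the effect of the deletion cannot be told apart from other features of that clone. Both genotypes were sampled at 0 h, as ESCs in 10% serum with LIF, and as spheroids in growth factor-reduced Matrigel with 15% serum and no LIF at 24 h and 48 h. Medium, matrix and time therefore changed together. Each genotype and time point had 2 libraries, 12 in all. The study describes the samples of a group as independent.

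The name *Dppa* was given to genes whose expression in the early embryo and in ESCs resembles that of the pluripotency factor *Pou5f1*. They do not form a single protein family. DPPA2 and DPPA4 are nuclear proteins that bind each other and chromatin and help to activate early embryonic genes, DPPA3 limits maintenance of DNA methylation, and DPPA5A carries a KH domain, an RNA-binding fold. *Fbxo15*, *Utf1*, *Tcl1* and *L1td1* are long-standing markers of undifferentiated ESCs, and all of the set except *L1td1* belong to the candidate factors that were screened when fibroblasts were first reprogrammed.

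The 8 genes lie on 7 chromosomes, and the only neighbours among them are *Dppa4* and *Dppa2*. *Dppa4* spans chr16:48283733-48294237 and *Dppa2* chr16:48303908-48319723, both on the plus strand of GRCm38, with 9.7 kb between them. *Dppa3* lies at chr6:122626410-122630272, *Utf1* at chr7:139943789-139945112 and *L1td1* at chr4:98726734-98738480, all on the plus strand. *Dppa5a* at chr9:78367052-78368177 and *Tcl1* at chr12:105216750-105222793 lie on the minus strand.

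The stretches upstream of *Utf1*, which rose in spheroids, *Tcl1*, which fell, and *L1td1*, which moved least of these, are shown. With 1 gene for each course, these sequences cannot relate sequence to course. RefSeq gave a promoter for 3 of the 8 genes on GRCm38.p6, and the bases printed run on the strand of the gene from 250 bases before the RefSeq start to the last base before the annotated gene. They are chr7:139943606-139943788 for *Utf1* on the plus strand, chr12:105222794-105222987 for *Tcl1* on the minus strand and chr4:98726504-98726733 for *L1td1* on the plus strand. Capitals mark the GC box, GGGCGG on either strand.
Utf1: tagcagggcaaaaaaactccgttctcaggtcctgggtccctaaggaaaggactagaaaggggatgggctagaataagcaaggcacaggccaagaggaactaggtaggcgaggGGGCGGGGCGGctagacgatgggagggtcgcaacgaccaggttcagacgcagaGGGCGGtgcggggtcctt
Tcl1: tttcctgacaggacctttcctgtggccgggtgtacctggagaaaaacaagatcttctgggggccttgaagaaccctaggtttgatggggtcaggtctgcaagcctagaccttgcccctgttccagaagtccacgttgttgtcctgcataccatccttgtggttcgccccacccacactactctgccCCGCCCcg
L1td1: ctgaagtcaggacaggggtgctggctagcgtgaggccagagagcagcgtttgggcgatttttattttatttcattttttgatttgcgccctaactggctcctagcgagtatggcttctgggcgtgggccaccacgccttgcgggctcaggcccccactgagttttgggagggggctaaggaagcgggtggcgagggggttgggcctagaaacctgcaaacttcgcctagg
Over the 250 bases before the RefSeq start, *Utf1* held 4 GC boxes, a pair of which overlap by 1 base, *Tcl1* held 2 and *L1td1* none. A GC box was present in 32.7% of 32851 RefSeq promoters in the same window. None of the 3 windows held the octamer ATGCAAAT, found in 1.6% of promoters on either strand, the TATA box TATAAA (12.4%), TCAAGGTCA, a site of orphan nuclear receptors (0.387%), or the E box CACGTG (6.02%). The windows held 14 CpG dinucleotides in *Utf1*, 11 in *L1td1* and 7 in *Tcl1*, beside a median of 6 over all promoters. These matches describe letters only, and binding at these sequences was not measured.

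Depth ranged from 29 to 38.5 M estimated counts per library. *Cidea* had 20 to 117 estimated counts in the WT libraries and 0 in the 6 CIDEA KO libraries, which with 3 counts as the floor allows up to 0.1041 counts per M counts (CPM), counting error only. The ESC markers *Pou5f1*, *Sox2*, *Nanog*, *Zfp42*, *Esrrb*, *Sall4* and *Epcam* summed to 3200 to 3270 transcripts per M transcripts (TPM) at 0 h, 2860 to 2900 at 24 h and 1890 to 2050 at 48 h in WT, and to 3430 to 3630, 3110 to 3170 and 1920 to 2140 in CIDEA KO cells. The 4 primed markers *Fgf5*, *Otx2*, *Pou3f1* and *Dnmt3b* summed to 85.3 to 85.4, 367 to 379 and 688 to 697 TPM in WT and to 59.0 to 63.6, 293 to 312 and 659 to 693 in CIDEA KO cells. Of the 8 fibroblast markers 7 stayed below 5 TPM in every library, as did 5 of 6 markers each of primitive endoderm, trophoblast and mesoderm, and 2 of 6 neural markers. From 0 h through 24 h to 48 h, trophoblast markers summed to 22.3 to 24.0, 12.7 to 13.4 and 7.37 to 10.4 TPM in WT and to 14.8 to 17.1, 13.2 to 15.7 and 9.43 to 9.77 in CIDEA KO cells. Neural markers summed to 142 to 166, 129 to 141 and 65.3 to 74.9 TPM in WT and to 150 to 161, 129 to 134 and 55.7 to 56.8 in CIDEA KO cells. Mesoderm markers summed to 6.16 to 8.44, 6.7 to 7.56 and 12.9 to 14.2 TPM in WT and to 5.57 to 6.22, 6.33 to 10.5 and 11.6 to 13.8 in CIDEA KO cells. Trophoblast and neural sums were thus lower and mesoderm sums higher at 48 h than at 0 h in both genotypes, but single genes dominated them. *Tfap2c* held most of the trophoblast sum at 0 h, and its means fell from 21.5 to 4.96 TPM in WT by 48 h. In CIDEA KO cells they fell from 13.3 to 4.65 TPM. The median log2 change of the trophoblast markers to 48 h was 0.89 in WT and 0.71 in CIDEA KO cells. *Tubb3* held most of the neural sum and *Eomes* most of the mesoderm sum at 48 h. The part of these markers in the changes of the 8 genes was not tested. Fibroblast markers summed to 7.88 to 25.6 TPM and primitive endoderm markers to 6.9 to 12 TPM over all libraries. The first CIDEA KO library at 24 h stood apart, with 15577 genes at 1 or more counts against 17634 to 19825 in the others. For the 8 genes, calls over time in CIDEA KO cells that involve 24 h are given below with their values without it. Calls of other genes that involve 24 h are given only with it included.

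The genes differed widely in level. On the TPM scale, which is corrected for transcript length, *Dppa5a* was the highest with a median of 2450 TPM over the 12 libraries. *L1td1* followed at 530 TPM and *Utf1* at 465 TPM. *Dppa4*, *Fbxo15* and *Dppa2* lay close together at 145, 121 and 108 TPM, *Tcl1* at 47.6 TPM and *Dppa3* at 5.05 TPM. *Dppa3* was covered by only 17 to 141 estimated counts per library, whereas the other 7 genes had at least 394. Between the lowest and highest library the level of *Tcl1* varied 14.57-fold and that of *Dppa3* 8.4-fold, against 1.26-fold for *Dppa4* and 1.44-fold for *L1td1*. The plot of TPM by time shows these courses.

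**Figure D1:**
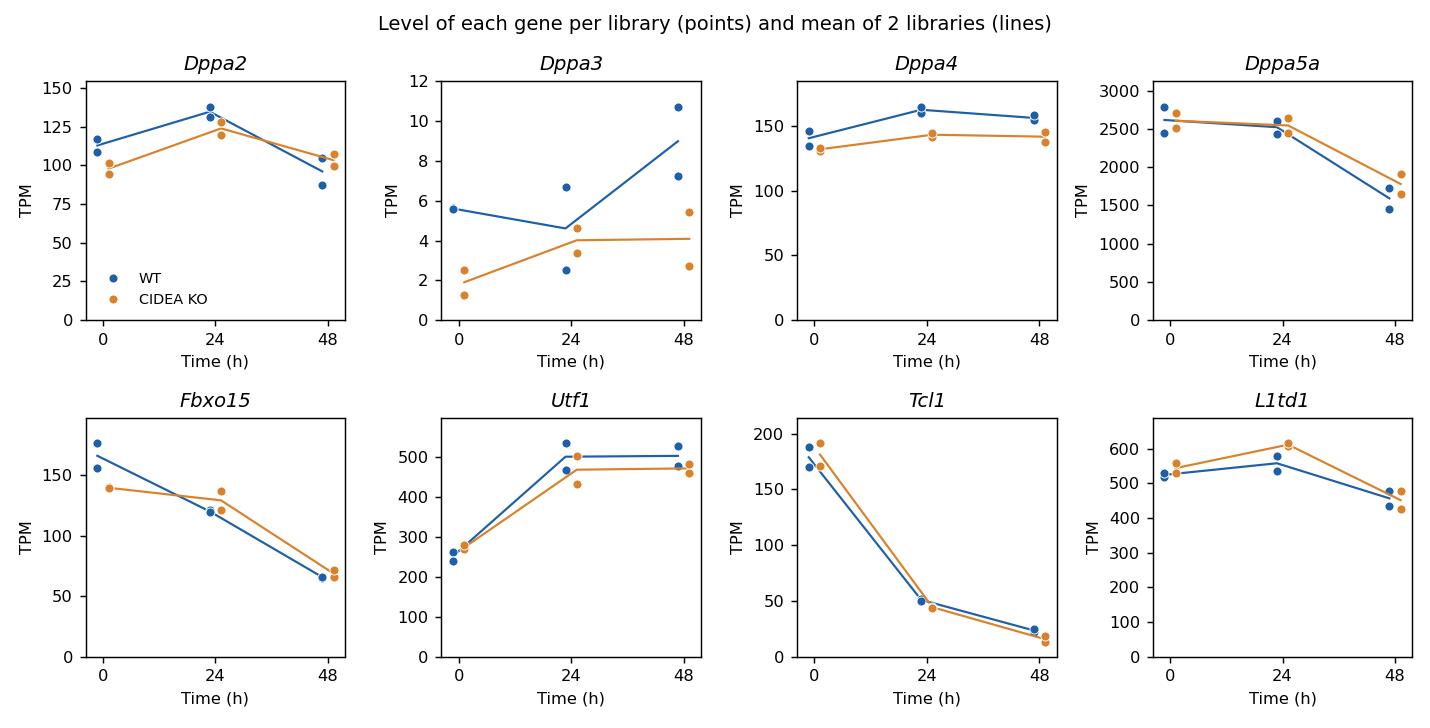
Level in TPM (vertical axis, from 0, with its own scale in each panel) against time in hours for the 8 genes in WT and CIDEA KO cells. Each point is a library and lines join the means of 2 libraries, with the genotypes moved slightly apart sideways; *Tcl1* drops from 170 or more at 0 h to 24.6 or less at 48 h and *Utf1* rises from 279 or less at 0 h to 461 or more at 48 h.

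In WT cells, 6 of the 8 genes changed between 0 h and 48 h by the quasi-likelihood test of edgeR, adjusted by Benjamini-Hochberg over all genes, where 23.6% of all genes tested were called. Of the 6, 1 was higher, as were 11.1% of all genes, and 5 were lower, as were 12.5%. In CIDEA KO cells 5 of the 8 changed, where 25% of all genes were called, 1 higher (12.1% of all genes) and 4 lower (12.8%). The median log2 change of the 8 genes was -0.26 in WT and -0.04 in CIDEA KO cells, and that of all genes was 0.02 and 0.01. *Utf1* was the gene that rose, and *Tcl1*, *Fbxo15*, *Dppa5a* and *L1td1* fell in both genotypes, while *Dppa2* was called lower in WT. Since RNA came from whole cultures, fewer cells expressing a gene and less RNA per cell cannot be told apart.

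*Tcl1*, which encodes a coactivator of AKT kinases, fell most. It had 170 and 188 TPM in the WT libraries at 0 h, 51.6 and 50.4 at 24 h, and 22.6 and 24.6 at 48 h. In CIDEA KO cells it had 171 and 191, 44.7 and 44.1, and 13.1 and 18.4 TPM at the same times. Within each genotype the 3 time points did not overlap. The log2 change from 0 h to 24 h was -1.95 ± 0.11 (SE; adjusted p = 2.9e-10 in edgeR) in WT and -2.10 ± 0.11 (adjusted p = 9.5e-11) in CIDEA KO cells. From 24 h to 48 h it fell again, by 1.03 in WT (adjusted p = 5.5e-06 in edgeR) and by 1.45 in CIDEA KO cells (adjusted p = 7e-08) on the log2 scale. Over the whole course *Tcl1* was 7.9-fold lower in WT and 11.72-fold lower in CIDEA KO spheroids than at 0 h.

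*Fbxo15* encodes an F-box protein, the substrate-binding subunit of an SCF ubiquitin ligase, and its promoter served as a reporter of reprogramming. The gene lies at chr18:84934782-84981473 on the plus strand. In WT cells it had 156 and 176 TPM at 0 h, 121 and 119 at 24 h, and 65.3 and 66.2 at 48 h. CIDEA KO cells had 140 and 139, 121 and 137, and 65.7 and 71.7 TPM. The CIDEA KO libraries lay below WT at 0 h and within or above the WT range later. From 0 h to 24 h the log2 change was -0.55 ± 0.085 in WT (adjusted p = 0.00012 in edgeR) and -0.17 ± 0.084 in CIDEA KO cells (adjusted p = 0.19). From 24 h to 48 h it fell in both, by 0.85 in WT (adjusted p = 1.8e-06 in edgeR) and by 0.78 in CIDEA KO cells (adjusted p = 3.7e-06). The difference between the genotypes in the change from 0 h to 48 h was 0.45 ± 0.12 on the log2 scale and did not pass the test (adjusted p = 0.31 in edgeR), although DESeq2 called it (adjusted p = 0.028).

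*Utf1* encodes a chromatin-associated protein and is a target of OCT4 and SOX2. It had 263 and 241 TPM in WT and 269 and 279 TPM in CIDEA KO ESCs. At 24 h it had 535 and 468 TPM in WT and 504 and 433 TPM in CIDEA KO spheroids, and at 48 h 478 and 528 TPM and 461 and 482 TPM. Every spheroid library lay above every ESC library. The log2 change from 0 h to 24 h was 0.93 ± 0.092 in WT (adjusted p = 7.4e-07 in edgeR), a 1.91-fold rise, and 0.74 ± 0.092 in CIDEA KO cells (adjusted p = 1e-05), a 1.67-fold rise. Between 24 h and 48 h the log2 change was 0.04 ± 0.091 and 0.09 ± 0.091, and neither passed the test (adjusted p = 0.92 and 0.62 in edgeR).

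*Dppa5a* was lower at 48 h than before. It had 2444 and 2794 TPM at 0 h, 2441 and 2608 at 24 h, and 1732 and 1454 at 48 h in WT. The CIDEA KO libraries had 2513 and 2705, 2454 and 2640, and 1653 and 1910 TPM. In both genotypes the 48 h libraries lay below all earlier ones. From 24 h to 48 h the log2 change was -0.65 ± 0.084 in WT (adjusted p = 5.1e-05 in edgeR) and -0.43 ± 0.084 in CIDEA KO cells (adjusted p = 0.0021). The call in CIDEA KO cells was lost without the first library at 48 h. From 0 h to 24 h the log2 change was -0.11 and -0.08, with 2 SE either side reaching from -0.28 to 0.06 in WT and from -0.25 to 0.08 in CIDEA KO cells. The pseudogenes *Dppa5b* and *Dppa5c* were each listed at 1.01 to 5.72 TPM with equal values in every library, and kallisto may have divided shared reads among the copies.

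*L1td1* encodes an RNA-binding protein derived from the first open reading frame of a LINE-1 retrotransposon. In WT cells it had 520 and 530 TPM at 0 h, 536 and 580 at 24 h, and 435 and 479 at 48 h. Its levels in CIDEA KO cells were 530 and 559, 608 and 616, and 478 and 426 TPM. The lowest values were again at 48 h, without overlap with 24 h. The log2 change from 24 h to 48 h was -0.28 ± 0.063 in WT (adjusted p = 0.0067 in edgeR) and -0.33 ± 0.063 in CIDEA KO cells (adjusted p = 0.0014). The whole course gave -0.25 ± 0.063 in WT and -0.20 ± 0.063 in CIDEA KO cells (adjusted p = 0.0054 and 0.021 in edgeR), calls lost in 5 and 4 of 21 other settings. The WT call from 24 h to 48 h was lost without the second library at 24 h or the first at 48 h, with a transcript length offset and in limma on log2 TPM.

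*Dppa2*, whose product acts with that of the adjacent *Dppa4*, had 109 and 117 TPM at 0 h, 138 and 131 at 24 h, and 105 and 87.3 at 48 h in WT. The CIDEA KO libraries had 94.3 and 101, 120 and 128, and 99.5 and 107 TPM. It was highest at 24 h in both genotypes. The log2 change from 0 h to 24 h was 0.20 ± 0.089 in WT (adjusted p = 0.16 in edgeR) and 0.29 ± 0.089 in CIDEA KO cells (adjusted p = 0.025). The latter call was lost without either library at 0 h or the second at 24 h, with a transcript length offset and in limma. From 24 h to 48 h the log2 change was -0.46 ± 0.089 in WT (adjusted p = 0.0022 in edgeR), lost without the second WT library at 48 h, and -0.16 ± 0.089 in CIDEA KO cells (adjusted p = 0.3). Over the whole course in WT it was -0.26 ± 0.089 (adjusted p = 0.039 in edgeR), a call lost in 12 of 21 other settings.

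*Dppa4* was the steadiest of the set. It had 147 and 135 TPM at 0 h, 160 and 165 at 24 h, and 155 and 158 at 48 h in WT. CIDEA KO cells had 131 and 133, 142 and 145, and 146 and 138 TPM. At each time both CIDEA KO libraries lay below both WT libraries. No change over time passed the test in either genotype, and the log2 change from 0 h to 48 h was 0.09 ± 0.079 in WT (adjusted p = 0.45 in edgeR) and 0.13 ± 0.079 in CIDEA KO cells (adjusted p = 0.28).

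*Dppa3*, also known as *Stella*, had the lowest level. It had 5.63 and 5.58 TPM at 0 h, 2.54 and 6.68 at 24 h, and 10.7 and 7.26 at 48 h in WT. In the CIDEA KO libraries it had 1.28 and 2.53, 3.38 and 4.65, and 2.73 and 5.44 TPM. The genotypes did not overlap at 0 h and 48 h and overlapped at 24 h. No change over time passed the test. From 0 h to 48 h the log2 change was 0.61 ± 0.66 in WT (adjusted p = 0.58 in edgeR) and 1.14 ± 0.68 in CIDEA KO cells (adjusted p = 0.27). The processed pseudogene *Dppa3-ps* was listed at 0 in all libraries.

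Calls in the shorter intervals were counted in the same way. From 0 h to 24 h 3 of the 8 genes were called in WT, where 15% of all genes were called, and 3 in CIDEA KO cells, where 18.6% were called. From 24 h to 48 h 5 were called in WT, where 8.14% of all genes were called, and 4 in CIDEA KO cells, where 9.95% were called, and all 9 calls were lower. The lower calls made up 4.86% of all genes in WT and 5.37% in CIDEA KO cells. Without the first CIDEA KO library at 24 h each of these counts was the same. In CIDEA KO cells the log2 changes from 0 h to 24 h were then -2.15 for *Tcl1*, 0.59 for *Utf1* and 0.32 for *Dppa2* (adjusted p = 9.6e-13, 2e-05 and 0.035 in edgeR). From 24 h to 48 h they were -1.41 for *Tcl1*, -0.85 for *Fbxo15*, -0.46 for *Dppa5a* and -0.37 for *L1td1* (adjusted p = 3.5e-09, 2.8e-07, 0.0048 and 0.0014 in edgeR).

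**Figure D2:**
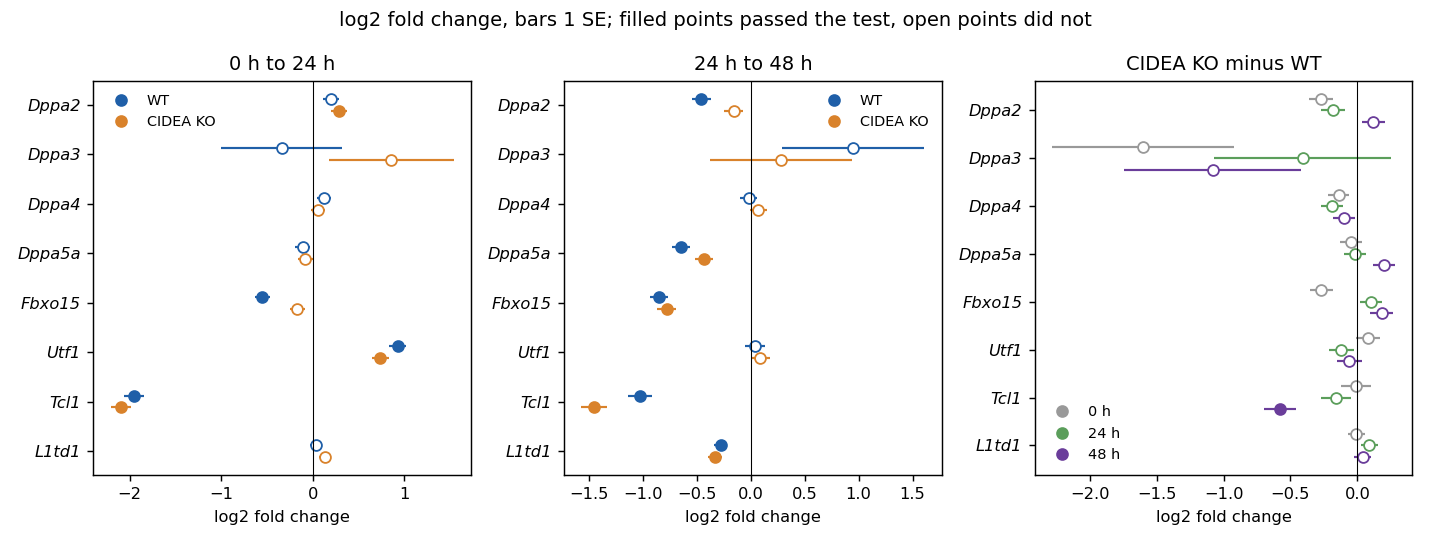
log2 fold change (horizontal axis) of the 8 genes (vertical axis) from 0 h to 24 h, from 24 h to 48 h, and in CIDEA KO relative to WT cells at each time. Bars are 1 SE, and filled points passed edgeR's test; from 24 h to 48 h every filled point lies below 0, and among the genotype differences *Tcl1* at 48 h alone is filled, at -0.58.

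The difference between the genotypes was then asked of the same genes. At 0 h and at 24 h none of the 8 was called by edgeR, where 1.26% and 1.46% of all genes were called. At an unadjusted p below 0.05, 3 and 1 of the 8 passed at these times, beside 1745 and 2177 of the 17424 genes tested. DESeq2 called *Fbxo15* at 0 h and none at 24 h. At 48 h 1 of the 8 was called, where 0.671% of all genes were called, and over all time points 1 of the 8, where 5.03% were called. Both calls were *Tcl1*, lower in CIDEA KO cells. The summed ESC markers were higher in both CIDEA KO libraries than in both WT libraries at 0 h and 24 h. Of the 7 ESC markers edgeR called only *Zfp42* at each of these times, and their median log2 difference was 0.07. At 0 h the clone had lower means of *Sall4* (78.9 against 104 TPM) and *Sox2* (355 against 371 TPM). Means of the other ESC markers were higher in it. Primed markers also differed. *Otx2* was lower in CIDEA KO cells at 0 h (-0.95 ± 0.098, adjusted p = 2.6e-05 in edgeR), and *Pou3f1* (-1.24 ± 0.15, adjusted p = 9.2e-05) and *Dnmt3b* (-0.34 ± 0.065, adjusted p = 0.0099) were lower at 24 h. The part of these markers in the genotype differences of the 8 genes was not tested.

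At 48 h *Tcl1* had 13.1 and 18.4 TPM in CIDEA KO against 22.6 and 24.6 TPM in WT spheroids, without overlap. The log2 difference was -0.58 ± 0.12 (adjusted p = 0.024 in edgeR), a level 1.49-fold lower. At 0 h the log2 difference was -0.01 ± 0.11 and at 24 h -0.16 ± 0.11, and neither passed the test (adjusted p = 1 and 0.6 in edgeR). The difference at 48 h from that at 0 h was -0.57 ± 0.16 and did not pass the test (adjusted p = 0.38 in edgeR), so a different genotype effect at 48 h was not shown. The call at 48 h was lost without the second WT or the first CIDEA KO library at that time, in a fit limited to the 48 h groups (adjusted p = 0.17), with a transcript length offset (0.36) and in limma on log2(TPM + 1) and log2(TPM + 0.1) (0.32 and 0.33). Over all time points the log2 difference was -0.25 ± 0.065 (adjusted p = 0.028 in edgeR), and *Tcl1* ranged from -0.29 to -0.21 over all settings tried. This call was lost without either WT library at 0 h, either at 24 h or the second at 48 h, or without the first CIDEA KO library at 0 h or at 48 h, and with the length offset (adjusted p = 0.18) and in both limma fits (0.22 each).

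For *Dppa4*, lower in both CIDEA KO libraries at each time, the log2 difference over all time points was -0.15 ± 0.046, a level 1.11-fold lower, and it missed the threshold (adjusted p = 0.075 in edgeR). DESeq2 called it (adjusted p = 0.02). For *Dppa2* the log2 difference over all time points was -0.11 ± 0.051 (adjusted p = 0.28 in edgeR), from -0.27 at 0 h to 0.12 at 48 h. For *Dppa3* it was -1.03 ± 0.39 (adjusted p = 0.15 in edgeR), and 2 SE either side reached from -1.8 to -0.26. It was called without the second CIDEA KO library at 24 h (adjusted p = 0.033) and not without the first.

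For the remaining genes no genotype difference was called by edgeR. *Fbxo15* was lower in both CIDEA KO libraries at 0 h, with a log2 difference of -0.27 ± 0.084 (adjusted p = 0.17 in edgeR and 0.046 in DESeq2, which called it). At 24 h and 48 h its log2 difference was 0.10 ± 0.084 and 0.18 ± 0.086 (adjusted p = 0.66 and 0.65 in edgeR). For *Dppa5a* it was 0.20 ± 0.083 at 48 h (adjusted p = 0.55 in edgeR). Over all time points the log2 difference was 0.00 ± 0.049 for *Fbxo15*, 0.04 ± 0.048 for *Dppa5a*, 0.04 ± 0.036 for *L1td1* and -0.04 ± 0.053 for *Utf1*. At 2 SE either side these reached from -0.09 to 0.10, from -0.06 to 0.14, from -0.03 to 0.11 and from -0.14 to 0.07. None of the 8 genes was called for a genotype difference in the change from 0 h to 24 h or to 48 h, for which edgeR called 2 of all genes (0.0115%) and 7 (0.0402%). At an unadjusted p below 0.05 there were 1 and 4 of the 8, beside 1029 and 1003 of the 17424 genes tested. DESeq2 called none and 1 of the 8.

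Transcript use was compared for the 6 genes with more than 1 annotated transcript, a comparison chosen after the values were seen. *Dppa2-201*, the leading *Dppa2* transcript, made up 84.6% ± 2.48 (SD, n = 6 libraries) of *Dppa2* TPM in WT and 91.0% ± 3.27 in CIDEA KO cells. The other transcript, *Dppa2-202*, took 14.5% and 17.3% at 0 h, 12.9% and 18.2% at 24 h and 17.2% and 12.4% at 48 h in WT. In CIDEA KO cells it took 8.87% and 9.73%, 2.67% and 11.3%, and 9.74% and 11.6%. Every CIDEA KO library lay below every WT library, and the first at 24 h was the lowest. In an exact two-sided permutation test within time points the difference gave p = 0.00926, the smallest the design allows, and 0.0556 after adjustment over the 6 genes. Without the first CIDEA KO library at 24 h, left out after seeing the data, the CIDEA KO shares ran from 8.87% to 11.6%. The difference of CIDEA KO from WT was then -5.17 points. Both annotated transcripts code for protein, and kallisto assigns reads that they share by estimate.

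Transcript shares of the other genes overlapped between genotypes. *Dppa4-202* took 91.0% to 98.1% in WT and 87.6% to 96.9% in CIDEA KO cells, *Fbxo15-204* 61.6% to 88.4% and 73.3% to 92.3%, and *Tcl1-201* 74.7% to 87.5% and 72.7% to 91.3%. *L1td1-202*, the leading *L1td1* transcript, took 43.9% to 48.6% and 40.6% to 50.5%. *Dppa3-201* took all or most of *Dppa3* TPM in every library except the first CIDEA KO library at 24 h, where it was listed at 0. In the exact permutation test these 5 genes gave adjusted p-values from 0.612 to 0.917.

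**Figure D3:**
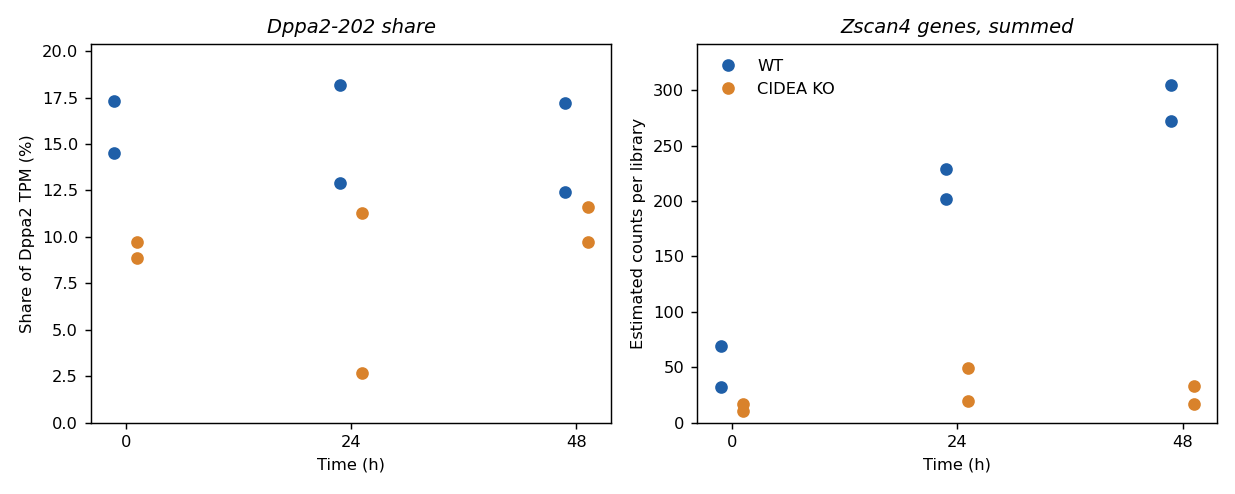
Left, share of *Dppa2* TPM taken by *Dppa2-202* (%); right, estimated counts summed over 6 *Zscan4* genes per library; both against time (h), each point a library, from 0, with the genotypes moved slightly apart sideways. The WT shares lie between 12.4% and 18.2% and the CIDEA KO shares between 2.67% and 11.6%, and the *Zscan4* sums reach 305 in WT and 49 in CIDEA KO cells.

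The other 17 candidate reprogramming factors gave a setting for these courses. All 17 were tested, and from 0 h to 48 h 1 rose and 9 fell in WT, where 11.1% of all genes rose and 12.5% fell. Likewise 1 rose and 9 fell in CIDEA KO cells, where 12.1% of all genes rose and 12.8% fell. The median log2 changes were -0.48 and -0.33. The 4 with the smallest adjusted p were the same in both, the naive transcription factors *Klf4*, *Nanog* and *Zfp42* and the LIF signal transducer *Stat3*. In WT their log2 changes were -4.17 ± 0.1, -1.96 ± 0.086, -1.52 ± 0.075 and -1.93 ± 0.1 (adjusted p at most 4e-11 in edgeR). In CIDEA KO cells they were -4.65, -2.26, -1.80 and -1.52. *Tdrd12*, of the piRNA pathway, was the one that rose, by 1.08 in WT and 1.42 in CIDEA KO cells on the log2 scale. *Tcl1*, with -2.98 and -3.55, lay between *Klf4* and *Nanog*, and the plot of changes to 48 h shows *Utf1* and *Tdrd12* at its upper end.

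**Figure D4:**
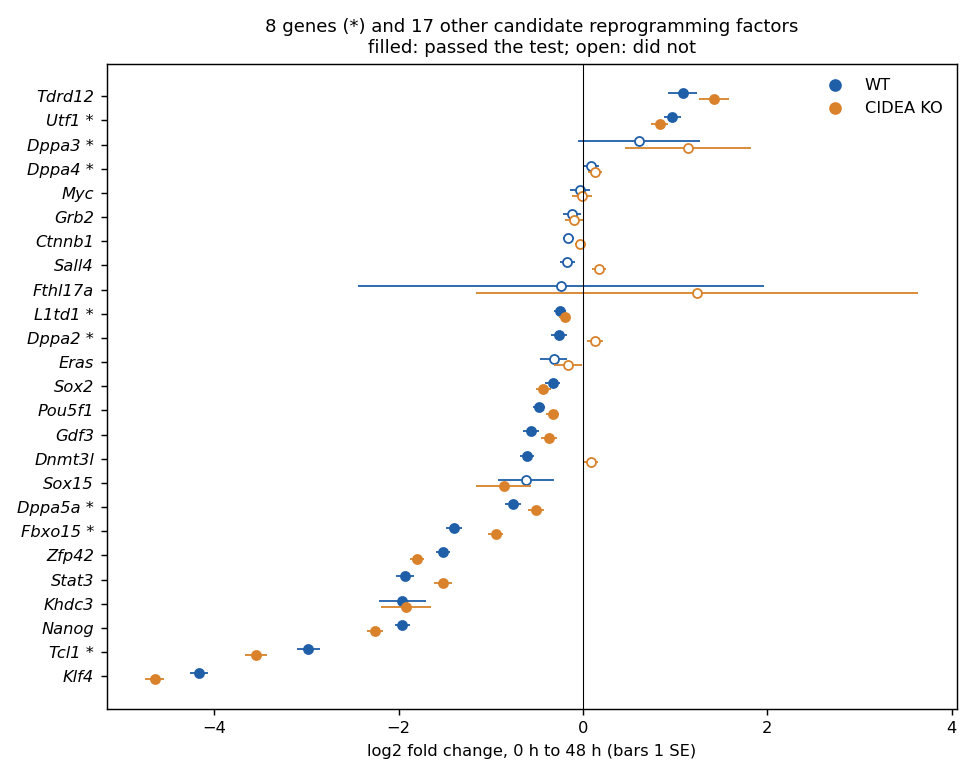
log2 fold change from 0 h to 48 h (horizontal axis, bars 1 SE) in WT and CIDEA KO cells for the 8 genes, marked by asterisks, and 17 other candidate reprogramming factors (vertical axis, in order of the WT value). Filled points passed edgeR's test; *Klf4* and *Tcl1* lie at the lower end with -4.17 and -2.98 in WT.

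Between genotypes, 4 of the 17 candidates were called at 0 h, 2 in each direction, where 1.26% of all genes were called. *Klf4* (0.47 ± 0.087) and *Zfp42* (0.31 ± 0.073) were higher in CIDEA KO ESCs, and *Dnmt3l* (-0.43 ± 0.076), a cofactor of DNA methyltransferases, and *Khdc3* (-1.21 ± 0.26), of the subcortical maternal complex, were lower. *Klf4* (0.42) and *Zfp42* (0.33) were called again at 24 h and none at 48 h, where 1.46% and 0.671% of all genes were called.

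Relatives of the set by name or sequence were mostly at or near 0. Of 12 such genes, *Dppa1*, KH-domain genes related to *Dppa5a* and genes related to *Tcl1*, 3 passed the count filter, *Ooep*, *Khdc3* and *Mtcp1*, and *Dppa1* was listed at 0 in all 12 libraries. The *Tcl1* relatives *Tcl1b1* to *Tcl1b5* did not exceed 0.548 TPM in any library. *Ooep*, which encodes a KH-domain protein of the oocyte and lies 7.9 kb from *Dppa5a*, had means of 34.7, 38.8 and 21.8 TPM at 0, 24 and 48 h in WT and 36.3, 39.7 and 21.0 TPM in CIDEA KO cells. Its log2 change from 24 h to 48 h was -0.80 in WT and -0.84 in CIDEA KO cells (adjusted p = 0.00015 and 6.3e-05 in edgeR).

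Some genes known to act with the set also changed over time, given from 0 h to 48 h unless another interval is named. *Lin28a*, whose RNA-binding product associates with L1TD1, rose by 0.95 ± 0.066 in WT and 1.58 ± 0.067 in CIDEA KO cells on the log2 scale. *Skp1a* and *Cul1*, the SCF subunits that work with F-box proteins, rose by 0.41 and 0.43 in WT and by 0.49 each in CIDEA KO cells. *Uhrf1*, whose product DPPA3 binds, fell by 0.35 in WT and by 0.28 in CIDEA KO cells from 24 h to 48 h. *Dnmt1* fell by 0.28 from 0 h to 48 h in CIDEA KO cells, and its WT means were 104 TPM at 0 h and 88.4 TPM at 48 h. Between genotypes *Lin28a* was called lower in CIDEA KO cells at 0 h, at -0.53 ± 0.066 (adjusted p = 0.00015 in edgeR).

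Genes described as responding to DPPA2 and DPPA4 were listed as 12 genes of the two-cell stage and 16 germline genes. Of the two-cell genes 7 were tested, and edgeR called none for a change from 0 h to 48 h in either genotype. All genes were called at 23.6% in WT and 25% in CIDEA KO cells. At an unadjusted p below 0.05, 2 passed in each genotype, beside 5812 of the 17424 genes tested in WT and 5884 in CIDEA KO cells. DESeq2 called 1 of the two-cell genes in each. Over all time points *Zscan4e* and *Zscan4c* were lower in CIDEA KO cells (adjusted p = 0.0028 and 0.018). Because *Zscan4* genes are near-identical and kallisto divides their shared reads, the 6 were summed. The sums were 32 and 69 estimated counts at 0 h, 202 and 229 at 24 h, and 272 and 305 at 48 h in WT. The CIDEA KO sums were 17 and 11, 49 and 20, and 17 and 33. At each time both CIDEA KO libraries lay below both WT libraries, at no more than 1.24 TPM against up to 8.6 TPM.

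Of the germline genes 15 were tested. From 0 h to 48 h 5 rose and 1 fell in WT, where 11.1% of all genes rose and 12.5% fell. In CIDEA KO cells 11 rose and 1 fell, where 12.1% of all genes rose and 12.8% fell. The median log2 changes were 0.79 and 1.42. None was called by edgeR or DESeq2 for a difference between the genotypes in that change. At an unadjusted p below 0.05, 4 passed, beside 1003 of the 17424 genes tested. *Tdrd1*, of the piRNA pathway, rose by 2.31 ± 0.39 in WT and 3.76 ± 0.42 in CIDEA KO cells on the log2 scale. *Tex14*, needed for germ cell bridges, was the one that fell, by 1.08 and 0.85, and it was higher in CIDEA KO cells at 0 h, 24 h and 48 h (0.59, 0.65 and 0.81). *Sycp3*, of the meiotic chromosome axis, was lower in CIDEA KO ESCs at 0 h (-1.27 ± 0.26, adjusted p = 0.014 in edgeR).

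Likeness over the 12 libraries was measured by Pearson's r of log2 CPM against 11973 genes whose log2 CPM averaged 1 or more. These r describe genes that share libraries, and they take in differences between genotypes as well as the time course. *Ppa1*, named below for *Dppa4*, had means of 166, 229 and 228 TPM over time in WT and 99.1, 135 and 143 in CIDEA KO cells. *Tcl1* was most like *Socs3*, a feedback inhibitor of LIF signalling, and *Itpk1*, both at r = 0.996. *Socs3* had means of 88.5, 7.1 and 2.14 TPM over time in WT and 112, 7.3 and 1.02 TPM in CIDEA KO cells. *Fbxo15* was most like *Stmn1* (0.991) and *Zfp59* (0.981), and *Utf1* most like *Gadd45g* (0.984), which rose from a mean of 1.76 to 26.7 TPM in WT, and *Tor3a* (0.981). *Dppa5a* was most like *Nedd4* (0.97) and *Mlh3* (0.96), and *L1td1* most like the mismatch repair gene *Msh6* (0.964) and *Dlc1* (0.944). *Dppa2* was most like *Dnmt3l* (0.895) and *Pdlim1* (0.884), *Dppa4* most like *Ttyh3* (0.929) and *Ppa1* (0.926), and *Dppa3* most like *Qrsl1* (0.845) and *A4galt* (0.839). *Dnmt3l*, *Ppa1* and *Qrsl1* all lie on chromosome 10. At 0 h their means were lower in CIDEA KO cells (216, 99.1 and 8.17 TPM) than in WT (281, 166 and 14.3 TPM). At 48 h *Dnmt3l* had a mean of 223 TPM in CIDEA KO cells and 188 TPM in WT. The part of chromosome position in these r was not tested.

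Nearest tested genes on either side did not all share the course of their neighbour. *Morc1*, 111.5 kb beyond *Dppa2*, fell from 0 h to 48 h by 1.08 in WT and 0.57 in CIDEA KO cells on the log2 scale, and *Gdf3*, 16.3 kb from *Dppa3*, fell by 0.56 and 0.37. *Patj*, 7.1 kb from *L1td1*, rose by 0.95 and 0.90, and *Kank4*, 16.4 kb on its other side, fell by 1.75 and 1.76. *Kndc1*, 2.3 kb from *Utf1*, had log2 changes of 0.15 and -0.04 that did not pass the test (adjusted p = 0.69 and 0.93 in edgeR). *Cyb5a*, 54.9 kb from *Fbxo15*, rose by 0.41 and 0.61. *Glrx5*, 173.8 kb from *Tcl1*, rose by 0.84 in WT and had a log2 change of 0.17 in CIDEA KO cells (adjusted p = 0.53 in edgeR). *Nectin3*, 1785.2 kb from *Dppa4*, rose by 0.96 and 0.74. For the other neighbours, *Gm10420*, *Gsta2*, *Cbln2*, *6430531B16Rik* and *Tunar*, which did not exceed a mean of 12.6 TPM in any group, no change from 0 h to 48 h passed the test.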

How the data were processed

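Libraries were made with a stranded mRNA kit. Per the labels' processing notes the submitters used FastQC, Trimmomatic 0.33 and kallisto 0.43.1 with builds mm10 and GRCm38. The deposited tables hold, per transcript, an estimated count, unscaled, and TPM, scaled by effective length and to a common total. Of 115270 transcripts, 113580 (98.5%) matched GENCODE M21 and were summed to genes, and the rest held 0.659% to 0.709% of counts. Depth was 29 to 38.5 M per library, and intervals from depth cover counting error only.

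Gene counts were rounded and fitted in edgeR 4.0.16 (R 4.3.3; TMM, filterByExpr, robust quasi-likelihood, 1 mean per group over all 12 libraries), with Benjamini-Hochberg adjustment over 17424 genes and a threshold of 0.05. The alternatives were DESeq2 1.42.0, its size factors in edgeR, no filter, at least 10 counts in every library, only the groups compared, a transcript length offset, limma 3.58.1 on log2(TPM + 1) and log2(TPM + 0.1), the replicate number as a block, and leaving out each library. Fits were tested on simulated data. Log2 CPM used a prior count of 2. Replicates differed beyond sampling noise (chi-square per degree of freedom 11.4 to 32.7).

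The members and gene lists were chosen with earlier results of these data known. Genes named were the members, up to 4 per list and comparison with the smallest adjusted p among those called, the 2 most alike and the nearest tested neighbours. *Tdrd12*, *Tex14*, *Dnmt3l* and others named for a count of 5 or fewer, with the *Dppa5a* and *Dppa3* pseudogenes and *Tcl1b* genes, were named after their values were seen. Counts over the list of genes known to act with the set are not reported here.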

Additional observations from a re-analysis of the deposited data

Results flagged for a closer look

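Among the genes listed beside the set, 4 were flagged because their change over time differed between the genotypes in edgeR's interaction test. *Dnmt3l* changed from a mean of 281 TPM at 0 h to 188 TPM at 48 h in WT and from 216 to 223 TPM in CIDEA KO cells, and the difference of the log2 changes was 0.70 ± 0.11 (adjusted p = 0.011). *Lin28a* changed from 103 to 203 TPM in WT and from 76.2 to 212 TPM in CIDEA KO cells, a difference of 0.63 ± 0.092 (adjusted p = 0.009). The primed marker *Otx2* changed from 45.1 to 160 TPM in WT and from 23.1 to 163 TPM in CIDEA KO cells, a difference of 1.04 ± 0.13 (adjusted p = 0.0024). *Pou3f1*, also a primed marker, changed from 1.05 TPM at 0 h to 14.2 TPM at 24 h in WT and from 1.75 to 6.1 TPM in CIDEA KO cells, a difference of -1.94 ± 0.24 (adjusted p = 0.0029). None of the 8 genes was flagged, and groups of 2 libraries were too small for a check of single samples.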

How the results depend on the processing

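The numbers of the 8 genes called for changes over time stayed within 1.5 times the reported count under each alternative. The genotype counts were less stable. At 48 h the count fell from 1 to 0 with only the groups compared, with the length offset and with limma at either pseudocount, and ranged from 0 to 1 when single libraries were left out. Over all time points it was 2 with DESeq2, 3 with at least 10 counts in every library and 0 with the length offset and with limma at either pseudocount, and ranged from 0 to 2 when single libraries were left out. DESeq2 called 1 at 0 h and 1 for the interaction from 0 h to 48 h, in place of 0. Of 2016 values of single genes, none reversed while called, 50 lost and 6 gained a call, and 57 that were not called changed sign. The cause of these moves was not tested. The group in which a gene had its highest mean was the same for 7 of 8 genes in CPM and 8 of 8 with protein-coding transcripts only.

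Over all genes, calls moved by more than 1.5 times. Reported counts of 220, 255, 117 and 877 for the genotype at 0 h, 24 h, 48 h and over all times ranged over 18 to 386, 13 to 615, 19 to 303 and 189 to 1268 with other settings. With single libraries left out they ranged over 75 to 436, 62 to 2327, 52 to 261 and 510 to 2506, the highest at 24 h and over all without the second CIDEA KO library at 24 h. Without that library the interaction to 24 h had 1070 calls against 2, and without the first or second CIDEA KO library at 24 h the interaction to 48 h had 57 and 58 against 7. Changes in WT (2615, 1418 and 4118 for 0 h to 24 h, 24 h to 48 h and 0 h to 48 h) fell as low as 1296, 420 and 2487 with limma, and in CIDEA KO cells (3236, 1733 and 4348) as low as 1598, 702 and 2506. With single libraries left out they ranged over 1326 to 3543, 653 to 2218 and 2625 to 5178 in WT and 1785 to 5142, 754 to 3723 and 2817 to 5260 in CIDEA KO cells, each highest without a CIDEA KO library at 24 h (the second for 5142 and 3723, the first otherwise) and lowest without a library of the groups compared.

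Replicate numbers were shared by all groups, but same-numbered libraries did not deviate together (correlations from -0.049 to 0.051). With the replicate block the counts of called genes were 0, 0, 1 and 1 for the genotype, 3, 5 and 6 for WT and 3, 4 and 5 for CIDEA KO cells, as without it. With 2 libraries per group, *Dppa3* at 17 to 141 counts could show only large differences.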
